A study of Mus musculus with 2 samples.

Results

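Collagen genes were read in the skeletal muscle of newborn mice. The members are all protein-coding genes whose GENCODE mouse symbol is Col, a number, a, a number, and 44 of the 43346 gene IDs in the tables met this. They were grouped by the kind of assembly their chains form, as 11 fibrillar, 9 network, 9 FACIT (fibril-associated, with interrupted triple helices), 6 beaded (type VI) and 4 transmembrane chains, and 5 others (types VII, XV, XVIII, XXVI and XXVIII). Muscle of mice of the B6NCrl strain was taken at postnatal day 0, with no treatment or genetic change in the labels. The only group holds 2 biological replicates, described as pup 1 (replicate 1) and pup 2 (replicate 2) of a single pregnancy. The labels give both the same donor entry, name no particular muscle and did not record sex, so the spread between the 2 samples may in part be technical. From each pup, 10 ng of RNA above 200 nt in size entered the library, with spike-in RNA added. With 1 group there was no contrast to test, and no p-value is given.

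Collagens are secreted proteins in which 3 chains wind into a triple helix. Fibrillar chains build the tensile fibrils of connective tissue, type IV chains build the sheet of every basement membrane, and type VI chains build beaded filaments that link the basement membrane of a muscle fibre to the fibrils around it. FACIT chains sit on the surface of fibrils. In skeletal muscle, fibroblasts of the connective tissue layers are known as the main source of the fibrillar and type VI chains.

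The libraries differed in markers of other tissues, and these values are given ahead of the collagens. The libraries summed to 40454569 and 37150646 counts. Marker genes of skeletal muscle fibres summed to 98510 TPM (a unit corrected for transcript length) in replicate 1 and 110600 in replicate 2, and all 6 (Acta1, Myl1 and Ckm the highest) were above 1 TPM in both. Of 10 epidermal markers, 9 reached 1 TPM in replicate 1 against 2 in replicate 2, with a summed level of 457.5 against 9.18 TPM. For cartilage, leaving out its collagens, 12 of 12 markers reached 1 TPM in replicate 1 and 3 in replicate 2 (43.79 against 19.75 TPM), and the cartilage genes Snorc and Ucma were at 0 in replicate 2. Tendon markers summed to 196.5 against 85.11 TPM and bone markers to 80.67 against 37.77 TPM. Single genes made up much of some of these sums. Tnmd stood at 114 and 35.1 TPM in the tendon list. Ctsk, which is also in the list of collagenases and inhibitors, stood at 45.4 and 32.1 TPM in the bone list. Sox6 stood at 12.2 and 13.4 TPM in the cartilage list.

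The sequences below, in 3 sets, carry points made later. The first is exon 2 of Col2a1, which codes for a cysteine-rich domain of the type II N-propeptide and is kept in 1 transcript form of the gene and skipped in the other. It lies at chr15:98000403-98000606 of GRCm38 on the minus strand, is 204 nt of coding sequence, and is printed from the GENCODE M21 transcripts, 5′ to 3′, with no part singled out.
Col2a1 exon 2: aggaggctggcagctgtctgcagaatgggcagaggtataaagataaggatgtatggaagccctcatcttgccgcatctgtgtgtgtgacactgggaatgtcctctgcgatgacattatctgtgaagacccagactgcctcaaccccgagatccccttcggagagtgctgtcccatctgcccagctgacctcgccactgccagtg

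The second set is the sequence just before the start of the most abundant collagen gene, Col3a1, and of Col10a1, which was among the least even between the pups. Both were taken from RefSeq promoters (GRCm38.p6, plus strand, chr1:45311398-45311537 and chr10:34389921-34389980), run up to the base before the start, and have the motif TATAAA in capitals. Counting the base before the start as -1, its first base lies at -32 in Col10a1 and at -117 in Col3a1.
Col3a1 promoter: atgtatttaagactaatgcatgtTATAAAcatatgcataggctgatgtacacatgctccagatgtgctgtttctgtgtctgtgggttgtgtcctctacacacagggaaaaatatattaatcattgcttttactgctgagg
Col10a1 promoter: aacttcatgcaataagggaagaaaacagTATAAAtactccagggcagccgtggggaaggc

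The third set shows how the type IV genes are arranged. They lie in 3 pairs that are transcribed away from each other, on chromosomes 8, 1 and X. Col4a1 (minus strand) and Col4a2 (plus strand) overlap by 22 bases at their starts (chr8:11312805-11312826, RefSeq, GRCm38.p6, plus strand), with GGGCGG in capitals. Col4a4 (minus strand) and Col4a3 (plus strand) are separated by 71 bases (chr1:82586850-82586920). Col4a6 and Col4a5 are separated by 1308 bases on the X chromosome, which are not printed.
Col4a1 and Col4a2 shared start: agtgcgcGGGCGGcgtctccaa
Between the Col4a4 and Col4a3 starts: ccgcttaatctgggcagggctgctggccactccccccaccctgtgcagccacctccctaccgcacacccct

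Promoters were found for 35 of the 44 genes, 38 promoters in all, and searched on both strands over the 250 bases before the start. TATAAA was found in 5 of the 38 (13.2%, against 12.4% of all 32851 promoters): those of Col3a1, Col10a1, Col11a2, Col13a1 and Col17a1. CCAAT was found in 13 (34.2% against 33.8%). GGGCGG was found in 22 (57.9% against 32.7%). Matches of different motifs that overlapped were each counted, and a match is a description of the letters only.

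Most collagen genes were detected, and 3 of them held over 75% of the collagen TPM in each pup. A mean of at least 1 TPM was reached by 39 of the 44 (88.6%), against 12495 of 21474 protein-coding genes (58.2%). Replicate 1 alone had 39 at this level and replicate 2 alone had 36. A mean of 10 TPM was reached by 19 and of 100 TPM by 7. Together the 44 genes summed to 6987 TPM in replicate 1 and 5081 in replicate 2, which is 0.699% and 0.508% of all TPM. Collagen transcripts are long, so their share of the counts was higher, at 2.53% and 1.89%. The 5 genes under 1 TPM were Col4a3, Col4a4, Col4a6, Col6a4 and Col6a5, each with between 6.08 and 65.82 counts per library, and no member was at 0.

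**Figure D1:**
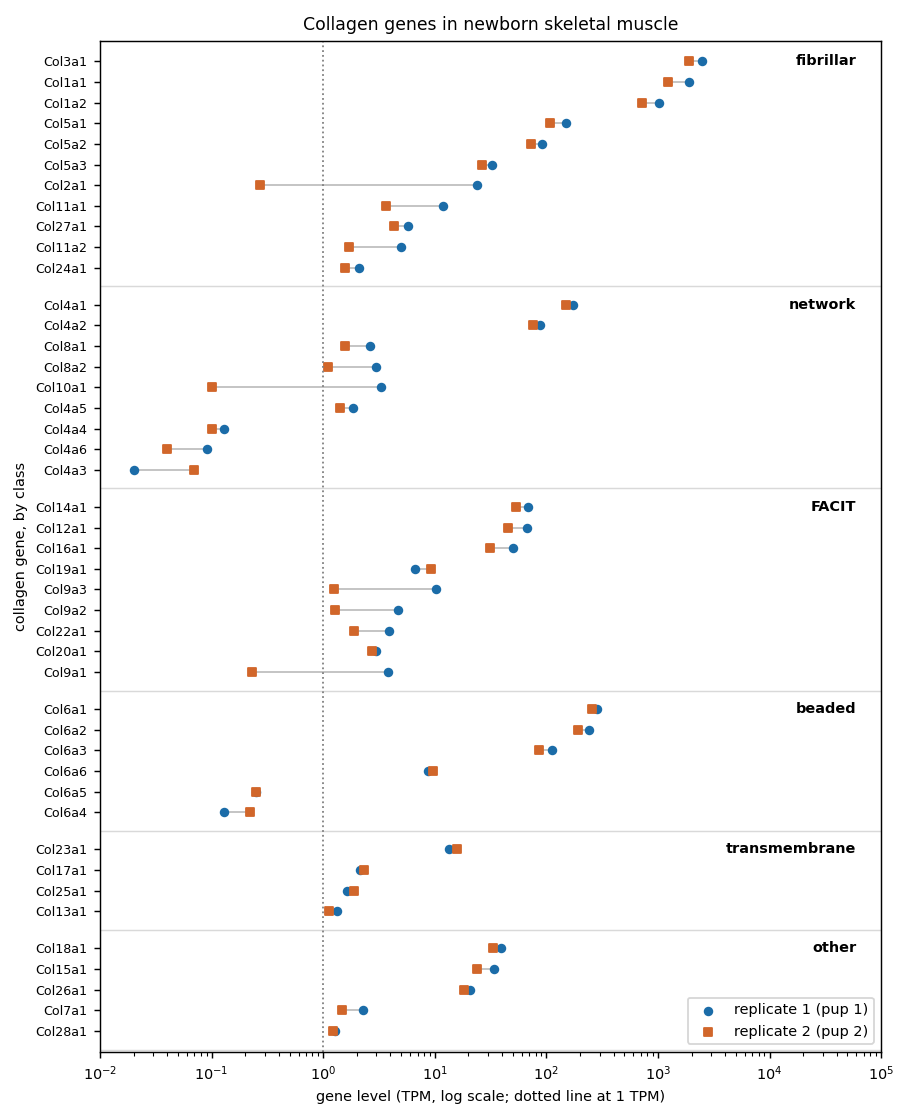
Level of each of the 44 collagen genes in TPM (log axis) in replicate 1 (circles) and replicate 2 (squares), ordered by class and level, with a dotted line at 1 TPM. Col3a1, Col1a1 and Col1a2 lie farthest to the right in both pups, while Col2a1, Col10a1 and Col9a1 are joined by long lines because replicate 2 lies far below replicate 1.

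The fibrillar class held 81.0 ± 1.52% of the collagen TPM (SD, n = 2), and Col1a1, Col1a2 and Col3a1 alone held 77.4% in replicate 1 and 75.6% in replicate 2. Beaded chains held 10.0 ± 1.02%, network chains 4.20 ± 0.451% and FACIT chains 3.0 ± 0.166%. Transmembrane chains held 0.341 ± 0.109% and the 5 others 1.47 ± 0.103%. This order of the classes was the same in each pup. The fibrillar share was 82.1% in replicate 1 and 79.9% in replicate 2, while the beaded share was 9.28% and 10.7%.

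Col3a1 (ENSMUSG00000026043, chr1:45311538-45349706, plus strand), the single chain of type III collagen, which is found beside type I in supple connective tissue, was the most abundant collagen by TPM. It stood at 2496 TPM in replicate 1 and 1897 in replicate 2 (2197 ± 424, SD, n = 2), rank 40 among protein-coding genes. Col1a1 (ENSMUSG00000001506, chr11:94936224-94953042, plus strand), which makes the major chain of type I collagen, stood at 1899 and 1228 TPM (1563 ± 474, rank 62). Its partner chain Col1a2 stood at 1015 and 718 TPM (867 ± 211, rank 126). All 3 were lower in replicate 2, and the ranges of Col3a1 and Col1a1 met, since Col1a1 in replicate 1 was as high as Col3a1 in replicate 2. Within each pup the order was Col3a1, Col1a1, Col1a2.

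The order of the first 2 genes depends on how transcript length is handled. Col3a1 TPM includes a short coding model of 737 nt that took 28.6% and 26.2% of the gene TPM but 4.49% and 4.01% of its counts. The Col3a1 to Col1a1 ratio was 1.31 and 1.54 by TPM, a log2 ratio of 0.51 ± 0.16 (SD, n = 2). The log2 ratio was 0.10 ± 0.19 when all counts of each gene were divided by its longest coding model. By that measure it was -0.03 in replicate 1 and 0.24 in replicate 2, so the order of the genes turned between the pups.

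Type V collagen, which joins type I fibrils and limits their width, came next in the fibrillar class. Its chain gene Col5a1 stood at 151 and 107 TPM in replicates 1 and 2, Col5a2 at 91.6 and 73.0, and Col5a3 at 32.3 and 26.4. The order of the 3 was the same in both pups and their ranges did not meet. Types XXVII and XXIV are fibrillar chains known mainly from the growing skeleton. Col27a1 stood at 5.70 and 4.35 TPM and Col24a1 at 2.09 and 1.58, both low and close between the pups.

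The cartilage fibril chains were the uneven part of the fibrillar class. Col2a1, the chain of type II collagen of cartilage, stood at 24.1 TPM in replicate 1 and 0.27 in replicate 2. Col11a1 stood at 11.8 and 3.64 TPM and Col11a2 at 5.0 and 1.69, and both encode chains of type XI, which lies in the core of type II fibrils. A mean over the pups describes Col2a1 poorly, since its SD of 16.8 TPM is larger than its mean of 12.2.

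Among network chains, the type IV pair of all basement membranes was far above the rest. Col4a1 stood at 172 and 150 TPM and Col4a2 at 87.8 and 75.6. The 4 other type IV chains, known from basement membranes of kidney, lung, skin and smooth muscle, were scarce. Col4a5 stood at 1.83 and 1.41 TPM, Col4a4 at 0.13 and 0.10, Col4a6 at 0.09 and 0.04, and Col4a3 at 0.02 and 0.07. Both Col4a1 and Col4a2 ranged above every other network chain in each pup. Type VIII chains, known from the subendothelium and the cornea, were low as well, with Col8a1 at 2.64 and 1.56 TPM and Col8a2 at 2.96 and 1.10. Col10a1, made by hypertrophic chondrocytes of the growth plate, stood at 3.30 TPM in replicate 1 and 0.10 in replicate 2.

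FACIT chains fell into an abundant set and a low set. Col14a1 and Col12a1, which coat type I fibrils in tendon and in the connective tissue of muscle, stood at 68.7 and 53.5 TPM and at 67.1 and 45.4 TPM. Col16a1 stood at 50.1 and 31.2 TPM. These 3 were above every other FACIT gene in both pups, and the ranges of Col14a1 and Col12a1 met. Col19a1, known from the developing muscle of the embryo, stood at 6.60 and 9.27 TPM and was higher in replicate 2. Col22a1, whose protein lies at the junction of muscle and tendon, stood at 3.89 and 1.90 TPM, and Col20a1 at 2.99 and 2.75. Type IX chains, which decorate type II fibrils of cartilage, were again uneven: Col9a3 stood at 10.3 and 1.26 TPM, Col9a2 at 4.65 and 1.27, and Col9a1 at 3.81 and 0.23.

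Type VI was the most abundant collagen after types I and III. Col6a1 (ENSMUSG00000001119) stood at 284 and 257 TPM, Col6a2 at 242 and 192, and Col6a3 at 113 and 86.3, and mutations in the human forms of these 3 cause the muscle diseases Ullrich congenital muscular dystrophy and Bethlem myopathy. The chains of 3 further genes can take the place of the Col6a3 chain in a trimer. Of these, Col6a6 stood at 8.63 and 9.60 TPM, while Col6a5 stood at 0.25 in both pups and Col6a4 at 0.13 and 0.22. Of the 3, Col6a6 alone was above 1 TPM in either pup.

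The 4 transmembrane collagens, which stay anchored in the cell membrane, were low and even. Col23a1 stood at 13.3 and 15.9 TPM and was above the other 3 in both pups. A short coding model of 521 nt held 48.9% and 53.0% of its TPM but 6.76% and 7.88% of its counts. Col17a1, a hemidesmosome protein of epithelia, stood at 2.15 and 2.33 TPM. Col25a1, which developing muscle needs for its innervation by motor neurons, stood at 1.63 and 1.87 TPM, and Col13a1, a protein of the neuromuscular junction, at 1.34 and 1.12 TPM. Over coding transcripts alone Col17a1 stood at 2.16 and 1.68 TPM, and the gene had 350 and 271 counts. The epidermal markers summed to 457.5 TPM in replicate 1 and 9.18 in replicate 2, while Trp63 among them stood at 6.44 and 4.88 TPM. A link between Col17a1 and these markers was not tested.

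Of the 5 other chains, those of the multiplexins XVIII and XV, which sit at basement membranes, led. Col18a1 stood at 39.5 and 33.3 TPM and Col15a1 at 33.8 and 23.8. Col26a1 stood at 20.5 and 18.4 TPM. Col7a1, the chain of the anchoring fibrils of skin, stood at 2.27 and 1.47 TPM, and Col28a1 at 1.27 and 1.22. The ranges of Col18a1 and Col15a1 met, and those 2 and Col26a1 were above Col7a1 and Col28a1 in both pups.

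Ratios between chains of a type compare genes within a library, so the depth of the library cancels. They are ratios of RNA, and the amounts of the protein chains were not measured. The ratios were taken per pup as a log2 ratio of TPM with 0.1 TPM added to each gene. A ratio was called when both pups passed 2-fold the same way. Of 18 pairs within a type, 15 had at least 0.1 TPM for both genes in each pup. The first chain led past 2-fold in 1, the second in 7 and neither in 7. In 13 of the 15 the direction was the same in both pups. The exceptions were Col8a1 to Col8a2 and Col9a3 to Col9a2.

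**Figure D2:**
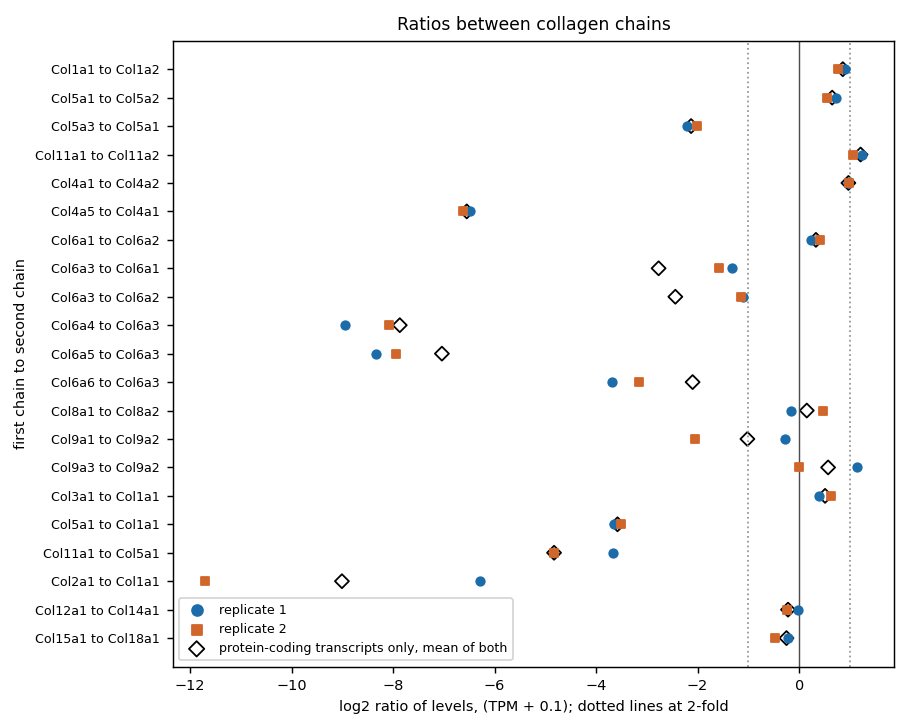
Log2 ratio of the first to the second chain (TPM with 0.1 added) for the 15 measured pairs within a type and 6 pairs across types, in replicate 1 (circles), replicate 2 (squares) and, as the mean of both, over protein-coding transcripts only (diamonds), with dotted lines at 2-fold. Circles and squares nearly coincide for types I, IV and V, the diamonds of the pairs with Col6a3 lie away from them, and the pairs with Col2a1 or type IX chains spread widely between the pups.

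In type I, whose common trimer holds 2 chains from Col1a1 and 1 from Col1a2, the Col1a1 to Col1a2 ratio was 1.87 in replicate 1 and 1.71 in replicate 2 (log2 0.84 ± 0.09, SD, n = 2). In type IV, whose common trimer likewise holds 2 chains from Col4a1 and 1 from Col4a2, the Col4a1 to Col4a2 ratio was 1.96 and 1.98 (log2 0.98 ± 0.01). This was the ratio with the smallest SD between the pups among the 15 pairs. The 2 genes start within 22 bases of each other, as printed above, and their exons overlap on opposite strands. In type V the Col5a1 to Col5a2 ratio was 1.65 and 1.46 (log2 0.63 ± 0.12), and Col5a3 lay below Col5a1 by more than 2-fold (log2 -2.12 ± 0.15).

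In type VI, whose trimer usually holds 1 chain of each of 3 genes, Col6a1 and Col6a2 were close to even, at 1.17 and 1.34 (log2 0.32 ± 0.13). The Col6a3 to Col6a1 ratio was 0.397 and 0.336 (log2 -1.45 ± 0.17). More than 50% of the Col6a3 TPM belonged to a retained-intron model of 646 nt. Over protein-coding transcripts alone, the Col6a3 to Col6a1 ratio was -2.77 ± 0.15 (log2) and the Col6a3 to Col6a2 ratio was -2.44 ± 0.01, against -1.13 ± 0.04 for the whole genes. So Col6a3 RNA stood below that of its partner genes under either reading, by an amount that depends on the transcript models counted. The Col6a6 to Col6a3 ratio was -3.42 ± 0.38, and -2.10 ± 0.36 over coding transcripts.

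Among the 15 pairs with at least 0.1 TPM for both genes in each pup, the first chain led past 2-fold in both pups only in type XI, with Col11a1 to Col11a2 at 2.37 and 2.15 (log2 1.15 ± 0.12). Below that minimum, Col4a5 to Col4a6 was at 20.3 and 35.2, with Col4a6 at 17 and 8 counts. With posterior mean TPM the log2 ratio of Col11a1 to Col11a2 was 0.95 ± 0.20 and no longer past 2-fold in both pups. With 1 TPM added this log2 ratio was 0.94 ± 0.22. In type IX the ratios moved between the pups, with Col9a1 to Col9a2 at 0.819 and 0.181 and Col9a3 to Col9a2 at 2.21 and 0.992. Type VIII had Col8a1 to Col8a2 at 0.892 and 1.42. Of these 3 pairs, Col9a1 to Col9a2 alone had the same direction in both pups, with Col9a1 the lower.

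Across types, Col5a1 lay at 0.0795 and 0.087 of Col1a1 (log2 -3.59 ± 0.09). Col11a1, the type XI chain closest in kind to Col5a1, lay at 0.0785 of it in replicate 1 and 0.0341 in replicate 2. Col12a1 and Col14a1 were near even by TPM (log2 -0.13 ± 0.14), but short coding models held much of both. In Col12a1, 75.5% and 71.3% of the TPM came from a model of 1784 nt, beside the longest of 11511 nt. In Col14a1, 45.5% and 41.4% came from a model of 2085 nt, beside the longest of 6457 nt. With counts divided by the longest coding model, Col12a1 lay below Col14a1 by more than 2-fold in both pups (log2 -1.22 ± 0.08). Col15a1 lay at 0.856 and 0.714 of Col18a1 (log2 -0.35 ± 0.18), with 48.7% and 51.4% of its TPM in a coding model of 1755 nt. With counts divided by the longest coding model, the log2 ratio of Col15a1 to Col18a1 was -0.57 ± 0.19.

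The collagens that differed most between the pups were those of cartilage, and all were higher in replicate 1. Each pup gave 1 library, so these ratios compare 2 libraries and were not tested. In bulk tissue, fewer cells of a type and less RNA per cell cannot be told apart. Among 39 members with at least 100 mean counts, 8 were past 2-fold higher in replicate 1, where 2.28% of all 12432 such genes were (284 genes). None was higher in replicate 2 past 2-fold, where 0.145% of all genes were (18 genes). At a limit of 1.5-fold the members were 10 and 1, against 5.02% and 1.13% of all genes.

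Col2a1 had 3435 counts in replicate 1 and 37 in replicate 2. After scaling for depth it was 80.1-fold lower in replicate 2, with an exact 95% interval of 58.0 to 114 that covers counting error only. Col10a1 had 299 and 9 counts (28.7-fold, 14.9 to 63.3) and Col9a1 had 371 and 19 (16.8-fold, 10.6 to 28.3). The next were Col9a3 (6.44-fold), Col9a2 (3.94-fold), Col11a2 (2.88-fold), Col11a1 (2.58-fold) and Col8a2 (2.45-fold). Of these 8, all but Col8a2 are chains of the cartilage types II, IX, X and XI, which held 0.901% of collagen TPM in replicate 1 and 0.167% in replicate 2.

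Many markers of cartilage, tendon, bone and epidermis were also lower in replicate 2. Of the 6 cartilage markers with at least 100 mean counts, Acan, Hapln1 and Chad were past 2-fold higher in replicate 1, and the list had a median log2 ratio of replicate 2 over replicate 1 of -1.13. Acan, the core protein of the cartilage proteoglycan, stood at 1.69 and 0.28 TPM. The chondrocyte gene Matn1, which was under the minimum count, stood at 2.04 and 0.02 TPM. Not all members of these lists went this way: the ratio was 0.32 for Sox6 and 0.12 for Sox5 in the cartilage list, and 0.15 for Scx in the tendon list. In the bone list Phex, also under the minimum count, had a ratio of 1.37 (26 and 61 counts). Tendon markers had a median of -0.87 (Tnmd, Fmod and Kera past 2-fold) and epidermal markers of -7.50 (8 of 9 past 2-fold). Bone markers had a median of -2.64, from the 4 of 10 with at least 100 mean counts (Ibsp, Spp1 and Acp5 past 2-fold). In contrast, the medians were 0.24 for muscle fibre, -0.12 for fibroblast, 0.01 for Schwann cell, 0.06 for endothelial and -0.02 for smooth muscle and pericyte markers. Their part in the collagen differences was not tested.

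**Figure D3:**
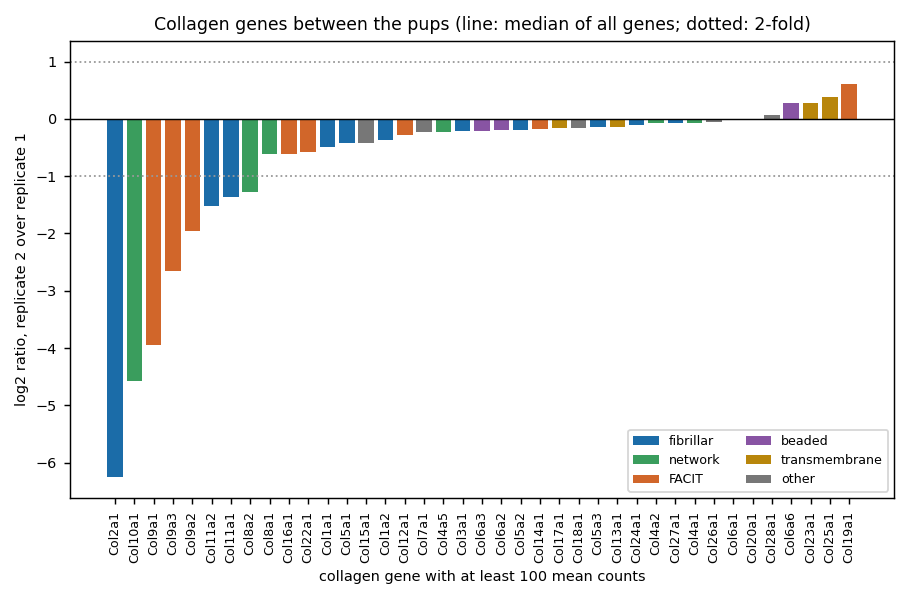
Log2 ratio of replicate 2 over replicate 1 for the 39 collagen genes with at least 100 mean counts, as 1 bar each, coloured by class and ordered by value, with dotted lines at 2-fold and a solid line at the median of all genes. The 8 bars past the lower dotted line are Col2a1, Col10a1, the 3 type IX genes, both type XI genes and Col8a2, and no bar passes the upper line.

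The other 31 members lay within 2-fold, between -0.62 and 0.60. Their median was -0.16, with 25 of 31 below 0, and over all 39 it was -0.21 with 33 below 0. All genes with the same minimum count had a median of -0.01, with 52.1% below 0. On the scale of deposited TPM the all-gene median moved to -0.15 and that of the 39 members to -0.38. By class the medians were -0.37 for fibrillar, -0.43 for network, -0.58 for FACIT, -0.11 for beaded, 0.07 for transmembrane and -0.16 for the other chains. Among abundant members, Col1a1 had a ratio of -0.50, Col5a1 of -0.43, Col1a2 of -0.37 and Col3a1 of -0.22. Col6a3 (-0.21), Col6a2 (-0.20) and Col5a2 (-0.20) lay near Col3a1, while Col4a1 (-0.07), Col4a2 (-0.08) and Col6a1 (-0.01) were close to even. Members above 0.1 were Col19a1 (0.60), Col25a1 (0.38), Col23a1 (0.28) and Col6a6 (0.28).

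**Figure D4:**
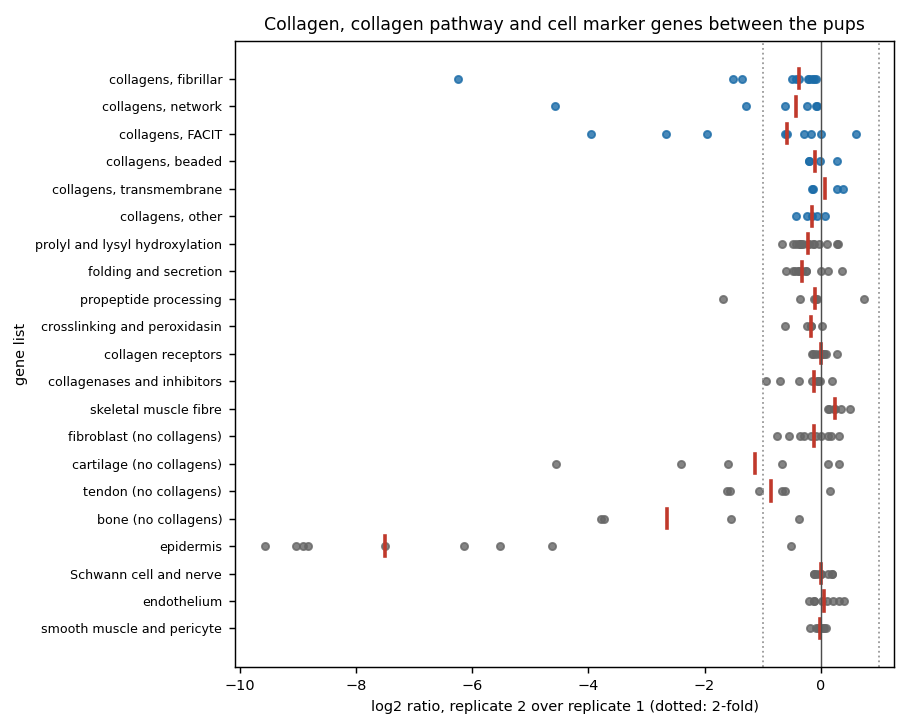
Log2 ratio of replicate 2 over replicate 1 for genes with at least 100 mean counts, as 1 point a gene, for the collagen classes (blue), the genes that act on collagens and the cell marker lists (grey), with a bar at each list's median and dotted lines at 2-fold. Epidermal, bone and cartilage markers reach far to the left, as do some fibrillar, network and FACIT collagens, while beaded and transmembrane collagens stay near 0.

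The transcript forms of some collagens also differed between the libraries, Col2a1 and Col9a1 of cartilage among them. In replicate 1, 97.3% of the Col2a1 TPM belonged to the form IIB, which lacks the exon 2 printed above and is known from mature chondrocytes, and 2.73% to the form IIA, which holds it and is known from chondrocyte precursors. In replicate 2 the shares were 34.5% and 65.6%, but they rest on 37 counts, of which 12.34 were assigned to IIB and 24.66 to IIA. In replicate 1, IIB had 3336.64 counts and IIA 98.36, so both were fewer in replicate 2. By posterior mean, IIB held 16.6% and IIA 9.27% of the gene in replicate 2, and another model led there. For Col9a1, the form with the upstream start (3834 nt) held 38.0% in replicate 1 and 0% in replicate 2, where all 19 counts went to the form of 3059 nt. By posterior mean the upstream form held 37.75% and 9.1%. Forms shifted outside the cartilage types too. In Col7a1 (318 and 234 counts), the split between 2 coding models of nearly the same length changed. The model of 9250 nt held 63.7% and 0% of counts (22.2% and 13.6% by posterior mean). The model of 9198 nt held 11.7% and 81.1% (8.54% and 23.1% by posterior mean). In Col13a1 (115 and 90 counts), a coding model of 2935 nt held 10.3% and 41.1% of counts (13.2% and 25.4% by posterior mean).

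Most collagen genes had a coding transcript in the lead. Among the 39 genes at 1 TPM or more, the leading form was the same in both pups for 33 by TPM and 36 by counts, and it was protein coding in both pups for 34. The leading form by TPM was also the lead by counts in both pups for 29. Models not annotated as protein coding held at least 10% of the TPM in both pups for 11 genes and at least 50% for 3. Those 3 were Col27a1 (66.2% and 60.4%), Col6a3 (60.5% and 59.5%) and Col16a1 (56.1% and 59.5%). Col7a1 (61.2% and 49.7%) and Col24a1 (56.0% and 47.1%) came next.

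Short models account for much of these shares, since TPM divides by length. By counts, the share outside coding models was 34.5% and 32.4% for Col27a1, 9.17% and 8.96% for Col6a3 and 30.8% and 35.8% for Col16a1. In Col6a3 the retained-intron model of 646 nt had 1107.56 and 780.58 counts, and the leading coding model of 9001 nt had 10926.92 and 8157.69. In Col18a1 a coding model of 5063 nt led with 86.8% and 86.2% of TPM. Col1a1 and Col4a1 each had over 99% of TPM in a single coding model in both pups.

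**Figure D5:**
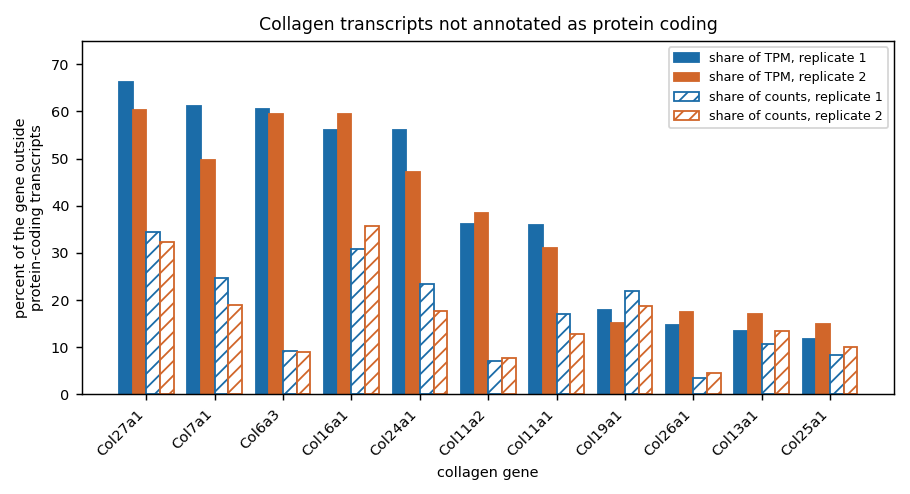
Percent of each gene in transcripts not annotated as protein coding, for the 11 collagen genes with at least 10% of TPM there in both pups, by TPM (filled bars) and by counts (hatched bars) in replicate 1 (blue) and replicate 2 (orange). For Col6a3 the filled bars reach 60.5% and 59.5% and the hatched bars 9.17% and 8.96%, and Col19a1 is the only gene of the 11 whose hatched bars are the higher ones.

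Exons of 10 members overlap an exon of another gene on the opposite strand. The sources used here do not say whether counting used strand, and without strand the reads of such neighbours cannot be told apart. Col4a1 and Col4a2 overlap each other. Col10a1 overlaps Nt5dc1, which had 306 and 213 counts, so the 9 counts of Col10a1 in replicate 2 lie beside a neighbour that was read in both pups. Col9a3 overlaps Tcfl5, which had 8.18 and 6.23 counts.

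Genes that make, fold, cut and bind collagen were read from 6 lists. A mean of 1 TPM or more was reached by 52 of 65 matched genes. Among 54 with at least 100 mean counts, 1 was past 2-fold higher in replicate 1 (Pcolce2, an enhancer of propeptide cleavage, 3.03 and 1.15 TPM) and 0 in replicate 2, where 2.28% and 0.145% of all genes were, so this count is near that over all genes. Their median log2 ratio was -0.15, with 40 of 54 below 0, beside a median of -0.01 and 52.1% below 0 over all genes.

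All 15 genes of prolyl and lysyl modification were above 1 TPM, led by P4hb (334 and 254 TPM), a subunit of prolyl 4-hydroxylase, by Ppib (308 and 229) and by Crtap (109 and 74.2), which form a complex for prolyl 3-hydroxylation. All 11 folding and secretion genes were above 1 TPM. Sparc, a collagen-binding matrix protein, stood at 2578 and 1795 TPM, Serpinh1, the collagen chaperone HSP47, at 451 and 271, and Kdelr2, which returns it to the endoplasmic reticulum, at 177 and 136. The log2 ratio was below 0 for 12 of 15 and 8 of 11 genes of these lists, beside 52.1% of all genes. Of the 10 propeptide-processing genes 5 were above 1 TPM, with Pcolce at 266 and 185 TPM, the C-proteinase Bmp1 at 26.2 and 22.6 and the N-proteinase Adamts2 at 10.5 and 8.83.

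For crosslinking, 5 of 6 genes were above 1 TPM. The lysyl oxidases Loxl1 and Lox stood at 67.4 and 40.3 TPM and at 46.6 and 36.0, and Pxdn, the peroxidase that crosslinks type IV collagen, at 27.6 and 26.0. Of 12 receptor genes 8 were above 1 TPM, among them the integrin chain Itgb1 (219 and 203 TPM) and the receptor kinases Ddr1 (26.4 and 25.4) and Ddr2 (25.1 and 20.4). Of 11 collagenases and inhibitors 8 were above 1 TPM, led by Mmp2 (84.1 and 87.9 TPM), Mmp14 (74.0 and 60.7) and the inhibitor Timp2 (64.3 and 58.4). The receptor list had a median ratio of 0.00 and the list of collagenases and inhibitors of -0.11, against -0.22 for prolyl and lysyl modification and -0.32 for folding and secretion.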

How the data were processed

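Total RNA of newborn mouse skeletal muscle from 2 pups was read from a gene table and a transcript table per pup. The authors deposited expected counts (estimated reads per gene or transcript, with shared reads split by a model) and TPM, each with a posterior mean, and the percent of a gene in each transcript, per the file headers. Quantification used mm10 and GENCODE M4, per the deposited files that accompany the tables. The aligner, the quantifier and the strandedness of counting were not given in the sources used here. GENCODE M21 gave names, biotypes and positions, matched by ID (42462 of 43346).

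Computed here were TPM means and SDs (n = 2), chain ratios with 0.1 TPM added, transcript shares and pup ratios. For the last, expected counts were rounded, scaled by TMM in edgeR 4.0.16 (R 4.3.3) and expressed as log2 CPM with a prior count of 2. The 2-fold limit asked for 100 mean counts. This step was run on simulated data in which as many genes were raised as lowered. That run does not cover a one-sided difference such as that between these pups (284 genes higher in replicate 1 and 18 in replicate 2). With 1 library per pup, no test was run. Intervals are exact Clopper-Pearson intervals at 95%. A count of 0 allows up to 3 counts. Both cover counting error only, since PCR reads carrying no molecular identifier are not independent molecules. Alternatives were size factors from DESeq2 1.42.0, pseudocounts, posterior means, count and level minimums, 1.5-fold, counts not divided by length, coding transcripts only and leaving out each replicate. Added after seeing the data were division by the longest coding model and pairs with no minimum level.

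The members, lists and pairs were chosen with earlier results of these data known. Every member at 1 TPM is named with both values, and from each list of collagen-related genes the 3 highest and any past 2-fold. Marker lists are given mainly as sums and medians. The planned protein features (length, Gly-X-Y triplets) were not computed. One listed folding gene, Ctage5, had no match. The other steps ran in Python 3.11.15 (matplotlib 3.10.9, scipy 1.17.1, pandas 2.3.3, numpy 2.4.6).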

Additional observations from a re-analysis of the deposited data

How the results depend on the processing

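With 5 TPM in place of 1 TPM as the limit, 24 collagen genes were detected in the mean. All 44 collagen genes together held 2.21% of expected counts, in place of 0.603% of TPM. The count of members higher in replicate 2 was 1 in place of 0 with 10 mean counts or with no minimum (Col4a3 in both, 6.08 and 17.51 counts) and with a 1.5-fold limit (Col19a1). Members higher in replicate 1 numbered 8 to 10 over the alternatives. Leaving out 1 pup gave 36 to 39 genes at 1 TPM and 0.508% to 0.699% of TPM. Col8a1 to Col8a2 lay between -0.16 and 0.47 (log2) in the single pups, and was -0.16 without replicate 2. Col9a3 to Col9a2 lay between -0.011 and 1.13 and was -0.011 without replicate 1. Col4a3 to Col4a4, with both genes near or under 0.1 TPM, was -0.59 by TPM and 0.31 by posterior mean. The cause was not tested. Of the 24 chain ratios, 12 moved by more than 1 SD with counts over the longest coding model, 16 with counts not divided by length, 5 with coding transcripts only, 7 with 1 TPM added, and 4 each with 0.01 TPM added and with posterior means, besides the reversal named. No paired analysis was possible because there is 1 group, and the ratio between the pups has no value with either pup left out.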
